A study of Mus musculus with 4 samples.

Results

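Fibrillar collagens are the rod-like proteins that make up the bulk of the organic matrix of bone. The accessibility of their 8 genes listed here, *Col1a1*, *Col1a2*, *Col3a1*, *Col5a1*, *Col5a2*, *Col11a1*, *Col24a1* and *Col27a1*, was measured by ATAC-seq, a sequencing assay of the DNA that a transposase can reach and cut. A region belonged to a gene when it overlapped the annotated gene or the 25 kb on either side (GENCODE M21, GRCm38), which gave 247 regions of the 255864 in the table. *Col3a1* and *Col5a2* lie tail to tail on chromosome 1, and 4 regions between them counted for both genes but only once in the sums over all genes. The rule used gene names and positions and no measured values, though the genes were chosen with earlier results of these data known.

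The cells were primary osteoblasts, the bone-forming cells, of 3-day-old C57BL/6 mice. According to the study's methods they came from calvarial bone by digestion, so they were a mixed culture rather than a sorted type. WT mice were compared with TCKO mice carrying Prx1-Cre and floxed alleles of *Tet1*, *Tet2* and *Tet3*, the genes of the dioxygenases that oxidise 5-methylcytosine. Prx1-Cre acts in limb and part of the skull mesenchyme, so cells of other origin in the culture keep their *Tet* genes, and the labels did not say whether the WT mice carried the floxed alleles or Cre. Whether the floxed exons were lost was not checked here. The labels listed 2 samples for each genotype, 4 in all, while a protocol text spoke of 3 repeats, and the count table had a single merged column for each genotype.

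With no replicate values, the spread between animals could not be measured, no test of genotype was possible and each difference below compares 1 merged library with another. The merged totals over all regions were 56898657 counts in WT and 34608167 in TCKO. Ratios are log2 of the TCKO count, scaled by the factor 1.64 that equalises these totals, plus 1 over the WT count plus 1. Their 95% Wilson intervals cover counting error only, and counts are reads, not independent molecules. The median ratio of all regions was 0.06 and not 0, and it was −0.54 with a depth derived from the peak caller's own background level, so directions are read against the other regions of the table. Where cells of several kinds are pooled, fewer cells with an open region and less opening in each cell cannot be told apart.

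Collagen fibrils of bone are built mainly from type I collagen, a trimer of the chains made by *Col1a1* and *Col1a2*. Type III collagen, from *Col3a1*, and type V collagen, from *Col5a1* and *Col5a2*, are laid into the same fibrils, where type V helps to start a fibril and limits its width. *Col11a1* makes a chain of type XI collagen, the cartilage relative of type V, and *Col24a1* and *Col27a1* make the more distant types XXIV and XXVII, known from forming bone and from cartilage respectively. Transcription of these genes in bone cells draws on the promoter and on enhancers in introns and flanks, and methylation of CpG dinucleotides at such elements is one of the features that TET enzymes alter.

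The promoters of these genes differ widely in CpG content, the letters that carry DNA methylation in mammals. The RefSeq promoter table (GRCm38.p6) matched 6 of the 8 genes. The bases before the annotated start are shown for 4 of them, each on the plus strand with CpG dinucleotides in capitals, because they span the range from none to very many. The *Col1a2* stretch was shortened to end before its first exon and to begin after an exon of another transcript.
Col3a1 chr1:45311288-45311537: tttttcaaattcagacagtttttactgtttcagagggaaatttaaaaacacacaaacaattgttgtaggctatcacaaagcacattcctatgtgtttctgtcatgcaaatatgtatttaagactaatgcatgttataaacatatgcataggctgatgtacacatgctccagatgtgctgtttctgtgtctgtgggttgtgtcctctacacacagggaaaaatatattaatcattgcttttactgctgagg
Col1a2 chr6:4505370-4505492: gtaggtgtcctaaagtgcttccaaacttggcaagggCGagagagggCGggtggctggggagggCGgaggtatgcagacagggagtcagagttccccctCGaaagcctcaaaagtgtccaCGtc
Col27a1 chr4:63215162-63215411: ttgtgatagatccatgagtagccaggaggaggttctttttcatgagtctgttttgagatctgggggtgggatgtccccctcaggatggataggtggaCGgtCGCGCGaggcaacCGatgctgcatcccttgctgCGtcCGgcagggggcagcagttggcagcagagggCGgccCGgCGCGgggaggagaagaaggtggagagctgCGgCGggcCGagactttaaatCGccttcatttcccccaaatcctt
Col5a1 chr2:27886175-27886424: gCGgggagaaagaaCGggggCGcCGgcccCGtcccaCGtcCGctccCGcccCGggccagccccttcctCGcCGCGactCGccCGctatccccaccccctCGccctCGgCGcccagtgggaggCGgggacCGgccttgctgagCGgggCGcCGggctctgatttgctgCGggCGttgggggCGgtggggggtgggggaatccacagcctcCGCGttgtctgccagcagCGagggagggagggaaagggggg

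The *Col3a1* stretch held 0 CpG dinucleotides in 250 bases and was the only one of the 6 with the letters TATAAA, searched on the coding strand and present in 7.6% of 32851 promoters of the table. *Col5a1* held 28 in 250 bases, *Col27a1* 15 and *Col1a2* 5 in 123 bases. *Col11a1* held 7 and *Col24a1* 3 in 250 bases. Per 100 bases these counts were 0.00 in *Col3a1*, 1.20 in *Col24a1*, 2.80 in *Col11a1*, 4.07 in *Col1a2*, 6.00 in *Col27a1* and 11.2 in *Col5a1*, against a median of 2.40 over all promoters. No promoter is printed for *Col1a1* and *Col5a2*.

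Over all 247 regions, the chromatin of the fibrillar collagen genes was less accessible in TCKO relative to the rest of the table by read counts. The median ratio was −0.15, with quartiles of −0.46 and 0.22, against 0.06 for all regions. The difference of the medians was −0.21 under total-count scaling. Another scaling factor moves both medians alike and could hardly change it. It was −0.20 with the trend on mean count removed by loess, −0.20 with the GC trend removed and −0.19 with 10 counts added. Below 0 lay 146 regions, or 59.1%, against 45.4% of all regions. The median collagen region held 137 WT and 81 TCKO counts, more than the 86 and 60 of the table, and was of like width at 249 bp against 243 bp.

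At least 2-fold lower in TCKO were 21 regions, 8.50% of them, where 4.51% of all regions were, and at least 2-fold higher were 10, 4.05%, where 12.3% of all regions were. By counting error alone, 78 regions had an interval below 0, 31.6% against 18.9% of all regions, and 46 with an interval above 0, 18.6% against 29.5%. The intervals of the other 123 covered 0. In both counts the collagen regions were on the lower side of the background, and with merged libraries no test of that difference was made. Of the 21 lower regions 15 were intronic, 5 flanking, 1 exonic and 0 promoter, with 40 to 470 WT counts and 6 to 98 TCKO counts. Of all 247 collagen regions 150 were intronic, 64 flanking, 12 exonic and 17 promoter, so introns were the largest class of both. The 10 higher regions were sparser, with 9 to 93 WT and 23 to 135 TCKO counts. An interval wholly past 2-fold was found for 3 lower and 3 higher regions. Of the 21 lower regions 18 had a peak summit in the WT list only, and of the 10 higher 8 in the TCKO list only. Among them were all regions with an interval wholly past 2-fold. Such regions stand in the table through the library where they are high, so their ratios and intervals are not independent of that selection.

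**Figure D1:**
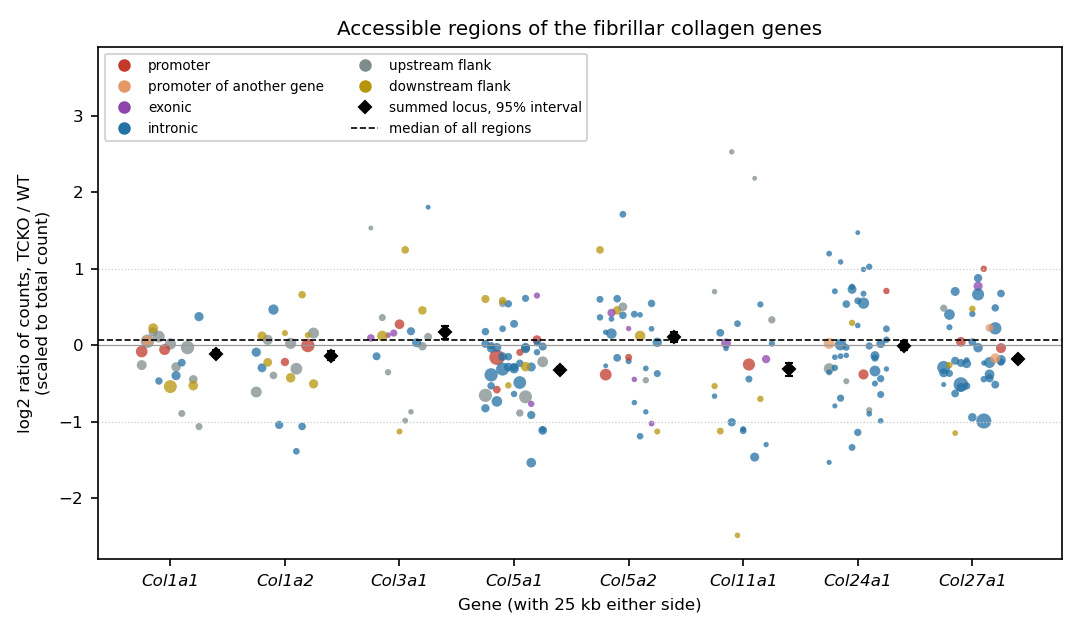
Log2 ratio (TCKO over WT, scaled to total count) of every region of each fibrillar collagen gene, coloured by its place in the gene and sized by its counts, with the summed locus and its 95% interval as a diamond. The summed loci of *Col3a1* and *Col5a2* sit above the dashed median of all regions, 0.06, and those of the other 6 genes below it. That line is a median of single regions, and against the median of summed loci, −0.03, *Col24a1* (−0.01) is above as well.

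The type I collagen genes differed little between the libraries. *Col1a1* (chr11:94936224-94953042), the gene of the α1 chain, had 20 regions with 10500 WT and 5909 TCKO counts in sum, a ratio of −0.11 (95% interval −0.16 to −0.07). *Col1a2* (chr6:4504814-4541544), the gene of the α2 chain, had 21 regions with 7799 and 4315 counts and a ratio of −0.14 (−0.19 to −0.08). Among 17891 protein-coding loci with at least 500 WT counts, 28.6% lay lower than *Col1a1* and 22.5% lower than *Col1a2*, and the median locus was at −0.03. Both genes thus stood inside the bulk of loci, and *Col1a1* without its downstream region of 1306 WT and 545 TCKO counts was at −0.06.

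The *Col1a1* promoter was open in both genotypes. Its region over the start had 601 WT and 351 TCKO counts, a ratio of −0.06, and the region at 0.9 kb had 774 and 444 counts, a ratio of −0.08 with an interval of −0.25 to 0.08. The region with most counts of the locus lay 7.3 kb upstream, with 1334 WT and 840 TCKO counts and a ratio of 0.05 (−0.07 to 0.17). Lower ratios were found in smaller upstream regions 18.7 and 20.4 kb before the start, with 125 WT and 36 TCKO counts (−1.07) and 117 and 38 counts (−0.89), and in a strong downstream region 21.9 kb after the start, with 1306 and 545 counts (−0.54). The promoter and the strongest upstream regions of *Col1a1* thus had intervals that covered 0, whereas the strong downstream region (−0.69 to −0.40) and part of the weaker flanking regions did not. The sign of the region 7.3 kb upstream turned with the TMM and DESeq2 factors, to −0.03 and −0.02.

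At *Col1a2* the promoter also had an interval that covered 0, while both intronic and strong upstream regions were lower. The promoter region with most counts held 1322 WT and 801 TCKO counts, a ratio of −0.0056 (−0.13 to 0.12). Inside the gene, 3 intronic regions at 3.1, 14.2 and 21.5 kb had at least 2-fold lower counts, with 173 WT against 50 TCKO counts (−1.06), 235 against 69 (−1.04) and 105 against 24 (−1.39), and each had a summit in the WT peak list only. Another intronic region at 25.7 kb went the other way, with 400 and 336 counts and a ratio of 0.46 (0.26 to 0.67). Upstream, the regions 21.4 and 17.1 kb before the start were at −0.61 (670 and 266 counts, −0.82 to −0.41) and −0.31 (860 and 422 counts, −0.48 to −0.14), whereas the neighbours 15.9 and 15.3 kb before it were at 0.16 and 0.02.

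*Col3a1* (chr1:45311538-45349706), the gene of type III collagen, was the highest of the 8 loci. Its 19 regions held 2746 WT and 1877 TCKO counts, a ratio of 0.17 (0.08 to 0.25) with 85.9% of all loci lower. The promoter region had 340 and 250 counts, a ratio of 0.27 (0.04 to 0.51). Of the 19 regions 6 were below 0, beside 45.4% of all regions. The promoter region was one of those above 0. This promoter region reached past the start, beyond the stretch without CpG, and held 4 CpG dinucleotides in its central 200 bp. Under the depth of the peak caller the locus was at −0.44, like most of the table below 0, but still above the median of all regions, −0.54. That is a median of single regions and not of summed loci.

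*Col5a2* (chr1:45374321-45503282, minus strand), the gene of the type V α2 chain, shared the flank beyond its end with *Col3a1* and was also above the median locus, at 0.11 (0.04 to 0.18) from 4520 WT and 2965 TCKO counts in 33 regions. With the depth of the peak caller it was at −0.50. Its promoter and its body differed in direction. The main promoter region held 862 WT and 401 TCKO counts, a ratio of −0.39 (−0.56 to −0.22), and both promoter regions together were at −0.36. Without the main promoter region the locus was at 0.20. All regions outside the promoter were together at 0.21 (0.14 to 0.29), among them an intronic region 83.3 kb into the gene with 47 WT and 95 TCKO counts (1.71, 1.23 to 2.23). That intronic region had a summit in the TCKO peak list only. The highest region between the genes (chr1:45355112-45355292), with 93 and 135 counts, was at 1.25 (0.88 to 1.63), and without it *Col3a1* was at 0.11.

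*Col5a1* (chr2:27886425-28039514), the gene of the type V α1 chain, was the lowest of the 8 loci and had the most counts. Its 47 regions held 17264 WT and 8362 TCKO counts, a ratio of −0.33 (−0.37 to −0.29), and 2.64% of all loci were lower. In 35 of the 47 regions the ratio was below 0, and in 21 the interval was, beside 45.4% and 18.9% of all regions. The promoter region held 2308 and 1256 counts, a ratio of −0.16 (−0.26 to −0.06). Away from it, a pair of upstream regions 24.4 and 21.6 kb before the start had 1448 against 558 and 1315 against 500 counts, ratios of −0.66 and −0.68, and strong intronic regions at 2.7, 45.7, 50.3 and 53.2 kb were at −0.39, −0.31, −0.49 and −0.74. Thus the chains of type V collagen differed, with the α1 locus below and the α2 locus above the median locus.

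*Col11a1* (chr3:114030540-114220718), whose chain can also assemble with type V chains, was close to *Col5a1*. Its 23 regions held 3369 WT and 1646 TCKO counts, a ratio of −0.32 (−0.40 to −0.23), with 2.96% of loci lower, and it moved to −0.22 without its most influential intronic region. It had 7 of its 23 regions at least 2-fold lower, the most of any of the 8 genes, where 4.51% of all regions were. The promoter had 955 and 487 counts, a ratio of −0.25 (−0.41 to −0.10), and all 4 downstream regions were below 0, the lowest with 60 WT and 6 TCKO counts (−2.49, −3.78 to −1.43). In contrast, a pair of weak regions 12.3 and 11.9 kb before the start had 9 against 27 and 12 against 45 counts, ratios of 2.18 (1.24 to 3.37) and 2.53 (1.72 to 3.53). This pair had summits in the TCKO peak list only, and the lowest downstream region in the WT list only. Each thus stands in the table through the library where it is high, which favours large ratios.

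*Col24a1* (chr3:145292472-145552011), the gene of type XXIV collagen, had 45 regions with 6744 WT and 4080 TCKO counts and a ratio of −0.01 (−0.06 to 0.05), within counting error of equal scaled counts. Without the region of 575 WT and 512 TCKO counts 229.7 kb into the gene it was at −0.07 (−0.13 to −0.01), so this call rested on that region. Its regions lay on both sides of 0, with 11 of the 45 intervals below 0 and 13 above. Of all regions, 18.9% had an interval below 0 and 29.5% above, so this spread is not particular to the gene. The wide promoter region had 483 and 225 counts, a ratio of −0.38 (−0.61 to −0.16), while the small region over the start had 57 counts in each library, a ratio of 0.71 (0.19 to 1.24). The far end of the gene held both an intronic region at 229.7 kb with 575 and 512 counts (0.55, 0.38 to 0.72) and a region at 201.4 kb with 118 and 28 counts (−1.34).

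*Col27a1* (chr4:63214004-63334991), the gene of type XXVII collagen, had 43 regions with 15212 WT and 8179 TCKO counts, a ratio of −0.18 (−0.22 to −0.14) with 14.6% of loci lower. One intronic region of 913 bp, 96.2 kb into the gene, decided this value. It was the region with most WT counts of all 247, with 2633 in WT and 804 in TCKO, a ratio of −0.99 (−1.11 to −0.88), and without it the locus was at −0.05 (−0.09 to −0.01). Its neighbours at 95.2 and 100.8 kb were at −0.29 (1269 and 630 counts) and −0.52 (2083 and 886 counts), whereas the region at 108.2 kb, with 708 and 682 counts, was at 0.66 (0.51 to 0.81). Further higher regions lay at 22.9 kb (150 and 168 counts, 0.88) and 68.1 kb (227 and 236 counts, 0.77), the latter over an exon, so that higher and lower regions alternated along this gene.

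**Figure D2:**
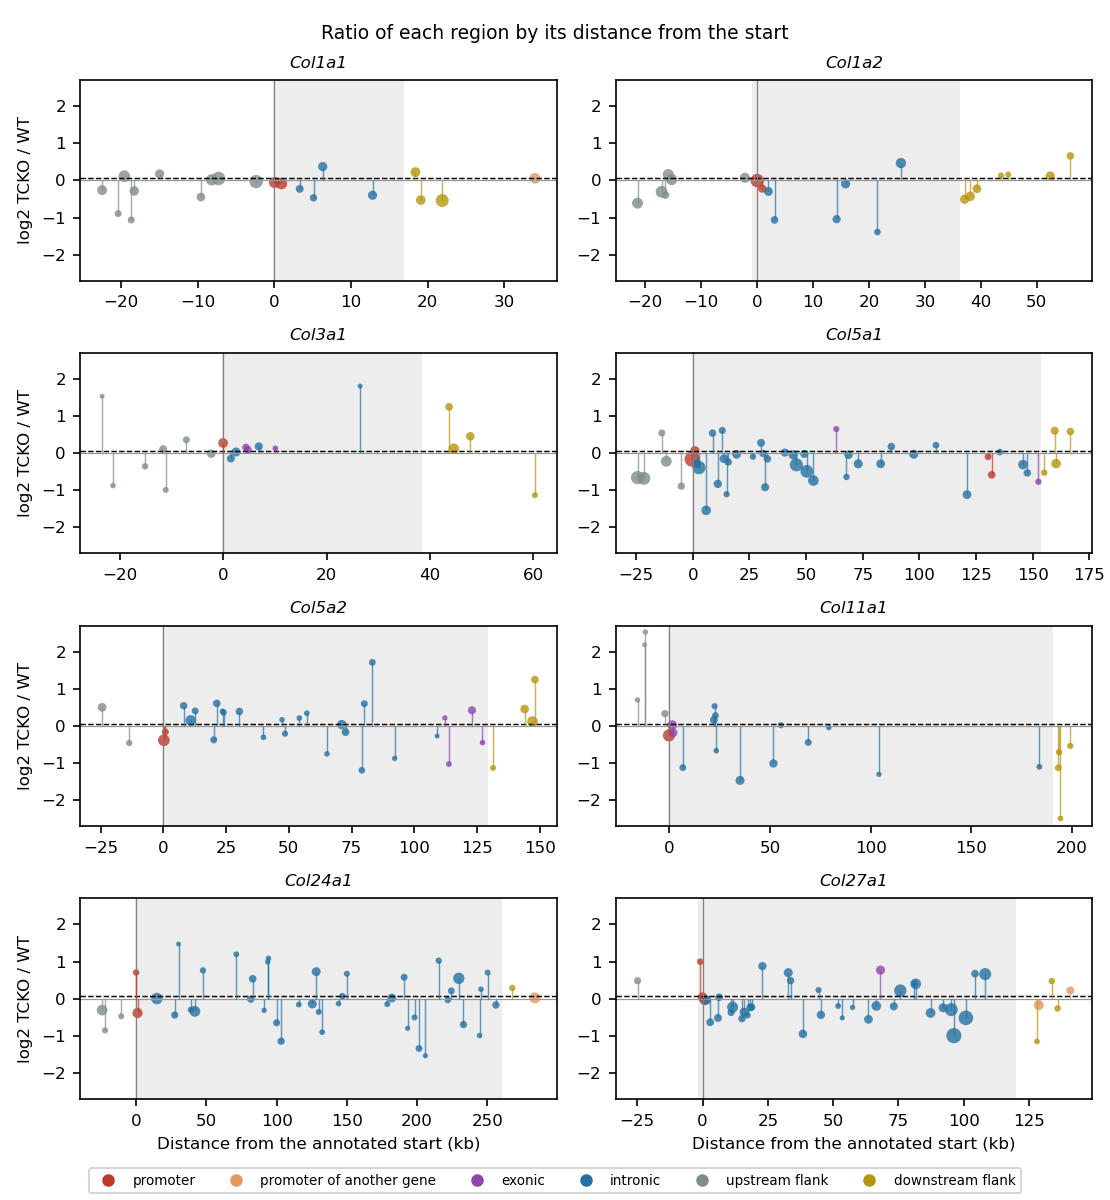
Log2 ratio (TCKO over WT) of each region against its distance in kb from the annotated start, in the direction of transcription, with the gene shaded, the dashed line at the median of all regions and point size by counts. Promoter points lie between −0.58 and 0.998, while intronic and flanking points spread further in both directions and reach −2.49 and 2.53 in *Col11a1*. Both of these *Col11a1* regions had a peak summit only in the library where they are high.

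Across the 8 loci, the interval was below 0 in 5, above 0 in 2 and covered 0 in 1. Of all 17891 loci, 39.0% had an interval below 0 and 24.9% above. In the order of ratios *Col5a1* and *Col11a1* had overlapping intervals, as had *Col27a1*, *Col1a2* and *Col1a1* one with the next, *Col24a1* and *Col5a2*, and *Col5a2* and *Col3a1*. The 5th and 95th percentiles of all loci were −0.27 and 0.33, so *Col5a1* and *Col11a1* were the only ones of the 8 outside them, *Col11a1* not without its most influential region (−0.22).

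The opening of the promoters in WT did not follow the order of the ratios. Per kb of promoter region, summed over all annotated starts of a gene, *Col1a1* had most WT counts, 1754 (95% Poisson interval 1662 to 1849). It was followed by *Col5a1* with 1721 (1659 to 1786), *Col1a2* with 1576 (1498 to 1656), *Col11a1* with 1451 (1361 to 1546) and *Col5a2* with 1359 (1275 to 1448). The *Col5a1* sum included weaker regions near starts 130.3 and 131.9 kb into the gene (739 and 568). Its region over the main start alone had 2117, above the *Col1a1* sum. *Col27a1* had 962 (897 to 1031), *Col3a1* 783 (702 to 871) and *Col24a1* 315 (289 to 343). Neighbours whose counting intervals overlapped were *Col1a1* with *Col5a1*, *Col1a2* with *Col11a1* and *Col11a1* with *Col5a2*, and the last 3 genes were apart from one another.

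Promoter regions were set against the other regions of the same gene, a comparison that does not depend on how the libraries are scaled. Within 1 kb of a start of their own gene lay 17 regions, with a median of −0.08, and none was past 2-fold in either direction. The median of the 150 intronic regions was −0.16 and that of the 64 flanking regions −0.22, while for intronic and flanking regions of the whole table it was 0.07 in both. Promoters of the table had a median of −0.07. The 95% order-statistic interval of the median, which treats regions as independent although those of a gene are not, was −0.24 to −0.03 for introns, −0.40 to 0.11 for flanks and −0.22 to 0.04 for promoters. It lay below the value of the table for introns and covered it for flanks and promoters. Of the intronic regions 15 were at least 2-fold lower, where 5.22% of intronic regions of the table were. At least 2-fold higher were 6, where 12.2% of those of the table were. The 12 exonic regions had a median of 0.11, and 4 regions lay at the promoter of another gene.

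In 6 of the 8 genes the promoter was higher than the rest of the gene, whereas in the 12904 genes with at least 200 WT counts in both sums the median difference was −0.15 (quartiles −0.35 and 0.05), with 69.6% below 0. The difference was 0.29 (0.13 to 0.46) in *Col27a1*, 0.21 (0.11 to 0.31) in *Col5a1*, 0.13 (−0.0033 to 0.26) in *Col1a2*, 0.12 (−0.13 to 0.37) in *Col3a1*, 0.09 (−0.10 to 0.27) in *Col11a1* and 0.06 (−0.08 to 0.19) in *Col1a1*. It was −0.23 (−0.44 to −0.01) in *Col24a1* and −0.58 (−0.75 to −0.40) in *Col5a2*. Leaving out the region that weighed most on each locus, the interval covered 0 in *Col27a1* (0.16, −0.0087 to 0.32), *Col24a1* (−0.15) and *Col5a2* (−0.38, −0.85 to 0.10), where the main promoter region itself was left out. It then no longer covered 0 in *Col1a2* (0.18, 0.05 to 0.32), and the sign turned in *Col1a1* (−0.0065) and *Col11a1* (−0.05). In *Col5a1* the difference was 0.23 (0.03 to 0.44) without its promoter region of most counts. The promoter regions left there had 279 WT counts at 0.9 kb, and 102 and 163 near starts 130.3 and 131.9 kb into the gene.

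**Figure D3:**
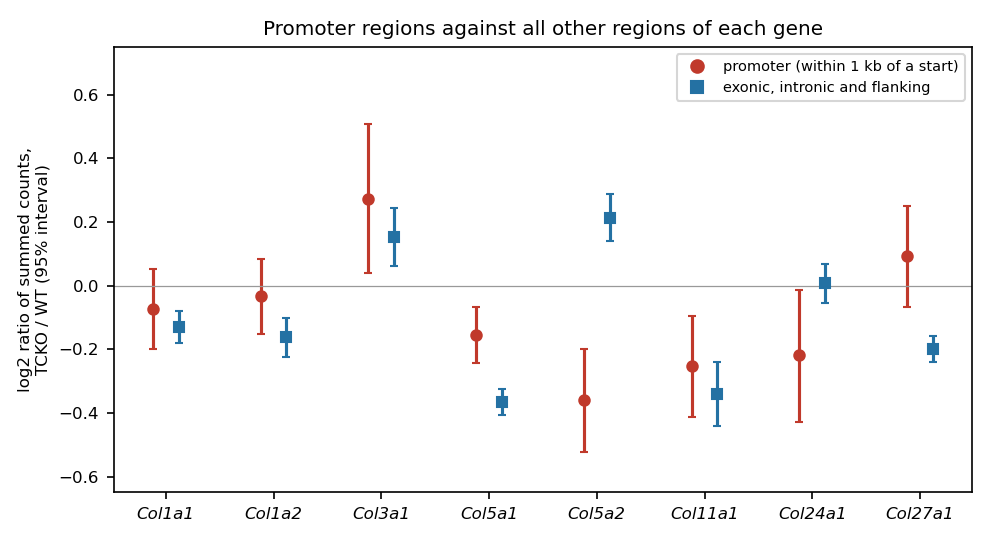
Log2 ratio of the summed counts (TCKO over WT) of the promoter regions, red circles, and of the exonic, intronic and flanking regions, blue squares, of each gene with 95% intervals that cover counting error. The circle is above the square in 6 genes and far below it in *Col5a2*, −0.36 against 0.21.

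The peak lists, called separately on the merged reads of each genotype, gave the same regions as present or absent calls. A summit of both lists fell in 141 of the 247 regions, a WT summit only in 89 and a TCKO summit only in 17. These shares, 57.1%, 36.0% and 6.88%, stood beside 56.8%, 33.0% and 10.2% in the whole table. Regions with a WT summit only were weak rather than empty in TCKO, with medians of 79 WT and 32 TCKO counts and a lowest TCKO count of 6. In the 141 regions with both, the log2 ratio of the peak fold enrichments, each relative to the background of its own library, had a median of −0.13. It was below 0 in 92, against a median of −0.19 and 69.7% below 0 in the table. By this measure the collagen median lay above that of the table, the reverse of the count ratios. Over the regions with both summits, the median count ratio was 0.01 for the collagen genes and 0.14 for the table. The selection depends on the ratio itself, as the regions with a WT summit only had a median of −0.52.

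Sequences at the centres of the regions with the lowest and highest ratios, chosen by a fixed rule among regions with at least 100 WT counts or TCKO counts, are given because the ratios of the collagen regions varied with sequence content. Each is the plus strand of GRCm38.p6 at the middle of the region, outside annotated exons, with matches to TGANTCA, the core letters bound by AP-1 factors such as Fos and Jun, and to TGTGGT, those bound by Runt factors such as RUNX2, in capitals on either strand. The first 3 are the lowest, in introns of *Col5a1*, *Col11a1* and *Col1a2*, and the next is the *Col27a1* intronic region with most WT counts.
Col5a1 chr2:27892210-27892409: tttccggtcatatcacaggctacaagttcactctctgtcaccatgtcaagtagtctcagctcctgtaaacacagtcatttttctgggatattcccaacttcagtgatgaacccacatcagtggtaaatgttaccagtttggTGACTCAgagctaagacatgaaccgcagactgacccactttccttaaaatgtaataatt
Col11a1 chr3:114065504-114065703: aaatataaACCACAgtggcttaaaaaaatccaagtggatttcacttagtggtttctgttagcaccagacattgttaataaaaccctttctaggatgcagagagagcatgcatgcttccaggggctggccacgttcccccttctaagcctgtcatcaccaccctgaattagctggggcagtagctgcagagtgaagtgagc
Col1a2 chr6:4526846-4527045: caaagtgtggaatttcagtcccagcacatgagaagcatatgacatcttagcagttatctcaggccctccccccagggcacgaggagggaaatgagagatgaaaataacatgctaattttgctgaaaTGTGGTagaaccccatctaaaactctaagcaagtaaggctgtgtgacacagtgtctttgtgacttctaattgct
Col27a1 chr4:63311544-63311743: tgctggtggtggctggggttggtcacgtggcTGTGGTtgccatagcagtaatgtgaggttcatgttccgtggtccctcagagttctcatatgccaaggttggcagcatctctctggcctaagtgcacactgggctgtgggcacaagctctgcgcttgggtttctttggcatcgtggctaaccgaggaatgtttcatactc

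The *Col5a1* intron region had 470 WT and 98 TCKO counts (−1.54, −1.86 to −1.23) and 1 AP-1 match. The *Col11a1* region had 365 and 80 counts (−1.47, −1.82 to −1.12) and 1 Runt match, as had the *Col1a2* region at 21.5 kb and the *Col27a1* region. None of the first 3 had a summit in the TCKO list. The highest regions outside exons lay between *Col3a1* and *Col5a2*, in an intron of *Col27a1* at 22.9 kb and in an intron of *Col24a1* at 128.2 kb.
Col3a1 chr1:45355112-45355292: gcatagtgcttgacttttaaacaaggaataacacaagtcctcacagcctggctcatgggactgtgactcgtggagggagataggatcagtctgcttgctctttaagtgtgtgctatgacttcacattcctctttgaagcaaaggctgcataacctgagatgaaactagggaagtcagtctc
Col27a1 chr4:63238238-63238437: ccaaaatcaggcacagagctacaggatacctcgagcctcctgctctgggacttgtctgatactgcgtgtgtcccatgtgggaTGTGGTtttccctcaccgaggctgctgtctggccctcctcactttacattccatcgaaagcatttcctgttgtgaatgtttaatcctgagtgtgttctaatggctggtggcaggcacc
Col24a1 chr3:145420590-145420789: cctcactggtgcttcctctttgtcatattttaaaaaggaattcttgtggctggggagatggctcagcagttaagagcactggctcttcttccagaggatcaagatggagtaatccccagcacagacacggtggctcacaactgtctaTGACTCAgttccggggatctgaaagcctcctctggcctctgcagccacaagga

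The region between *Col3a1* and *Col5a2* had neither motif, the *Col27a1* region had 1 Runt match and the *Col24a1* region, with 206 WT and 208 TCKO counts (0.73, 0.45 to 1.01), had 1 AP-1 match. A Runt match was thus found in regions of both directions. A match describes the letters only and not a bound factor.

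An AP-1 match in the central 200 bp was found in 61 of the 247 regions, 24.7% against 23.6% of all regions. Their median ratio was 0.13, against −0.21 for the regions without one, and in the whole table it was 0.42 against −0.02. Outside promoters the collagen medians were 0.14 in 60 regions with a match and −0.23 in 166 without. Within genes, the regions with a match had the higher median in 7 of 8, as in *Col24a1* (0.54 in 13 regions against −0.17 in 29) and *Col27a1* (0.32 in 12 against −0.25 in 26), but not in *Col11a1* (−0.62 in 4 against −0.11 in 18). In *Col5a1* both were low, −0.22 in 13 regions and −0.26 in 30. A Runt match was found in 49 regions, 19.8% against 22.2% of all, with a median of −0.23 against −0.09 without, where the table had 0.08 against 0.06. The other letters searched on both strands were GGAATG of TEAD factors (41 regions, 16.6% against 16.3% of all), CCAAT (70, 28.3% against 23.3%) and TAATTA of homeobox factors (7, 2.83% against 2.47%), and their medians with a match were −0.25, −0.05 and −0.29.

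Ratios were lower in collagen regions richer in CpG dinucleotides. Outside promoters, the median was 0.01 in 103 regions with 0 or 1 CpG in the central 200 bp, −0.23 in 93 with 2 to 4 and −0.31 in 30 with 5 or more, and the whole table had 0.23, 0.05 and −0.10. The CpG-poorest class held 42.9% of the collagen regions and 38.4% of the table. All 10 regions at least 2-fold higher were in it, and 10 of the 21 lower ones. In the richest class, 23 of 30 were below 0, where the median of the table was below 0 too (−0.10). These counts were not set beside shares past 2-fold or below 0 by class in the whole table, which had the same order of medians. They are therefore not read as a trait of the collagen genes. The order held for *Col5a2* (0.34 in 21 regions with 0 or 1 CpG against −0.31 in 10 with more) and *Col24a1* (0.16 in 18 against −0.30 in 24) but not for *Col1a2* (−0.30 in 8 against 0.12 in 11). In each CpG class the collagen median lay below that of the table, and the regions of a gene share its neighbourhood and base composition.

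**Figure D4:**
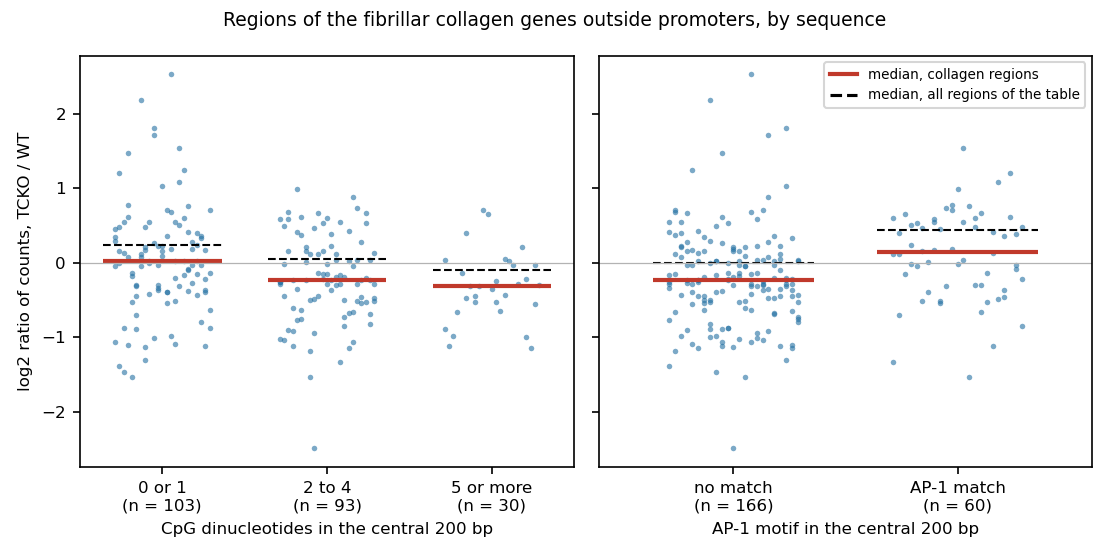
Log2 ratio (TCKO over WT) of the collagen regions outside promoters, grouped on the left by the number of CpG dinucleotides and on the right by an AP-1 match in the central 200 bp, with the median of the collagen regions as a red bar and of all regions outside promoters as a dashed line. The red bars fall from 0.01 to −0.31 with CpG content, rise from −0.23 to 0.14 with an AP-1 match and lie below the dashed line in every group.

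The genes whose products modify, process and cross-link collagen were taken as a fixed list of 30, with loci defined in the same way. Their median was −0.06, against −0.12 for the fibrillar collagens and −0.03 for all loci, and 22 of 30 were below 0, where 58.3% of all loci were. The interval was below 0 in 15, above 0 in 4 and covered 0 in 11, beside the 39.0% and 24.9% of all loci with intervals below and above 0. Lowest were *Loxl2*, a lysyl oxidase that cross-links fibrils (3971 WT and 1919 TCKO counts, −0.33), *Adamts2*, the protease that removes the amino-terminal propeptide (12832 and 6409, −0.28) and *Plod2*, the lysyl hydroxylase of the telopeptides (9981 and 5183, −0.23). Highest were *Pcolce2*, an enhancer of the carboxy-terminal protease (2703 and 2153, 0.39), *Tll1*, a protease of that kind (4235 and 3105, 0.27) and *Loxl3*, another lysyl oxidase (7179 and 4739, 0.12). With the locus limited to the gene and the 2 kb before it, *Pcolce2* was at 0.09, below *Tll1* (0.26) and *Loxl3* (0.20), and *Loxl2* at −0.59. The protease *Bmp1* itself was at 0.08, *Lox* at −0.22 and *Serpinh1*, the collagen chaperone of the endoplasmic reticulum, at −0.05.

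Of 11 other collagen genes all were below 0, with a median of −0.17 and 10 intervals below 0, beside the same 58.3% and 39.0% of all loci. They ranged from *Col8a1* at −0.06 to *Col6a3* at −0.33. The cartilage fibrillar collagens *Col2a1* and *Col11a2* were at −0.17 and −0.12, and *Col10a1*, of hypertrophic cartilage, at −0.21. Some of these loci are neighbours and share regions, as *Col4a1* and *Col4a2* do (−0.31 and −0.20).

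**Figure D5:**
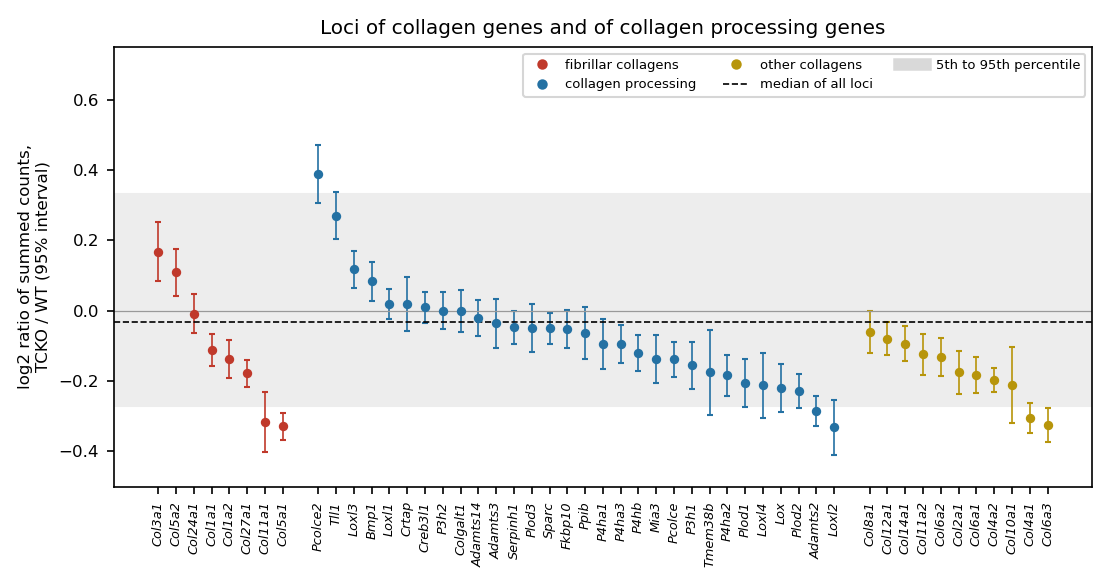
Log2 ratio (TCKO over WT) of the summed counts of each locus with its 95% counting interval for the 8 fibrillar collagen genes, 30 collagen processing genes and 11 other collagen genes, with the median of 17891 loci dashed and their 5th to 95th percentile shaded. *Col5a1*, *Col11a1*, *Loxl2*, *Adamts2*, *Col4a1* and *Col6a3* lie below the band and *Pcolce2* above it.

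The cell types in the cultures were looked at by promoter regions of marker genes. All 7 osteoblast markers had one, with 5644 WT and 3152 TCKO counts in sum and a ratio of −0.12. All 3 tendon markers (−0.16) and 4 of 5 chondrocyte markers (−0.02, none for *Matn1*) had one as well, and the 4 skeletal muscle markers had none. Macrophage or osteoclast markers had one in 5 of 6 (731 and 582 counts, 0.39, none for *Ptprc*) and endothelial markers in 4 of 5 (980 and 803 counts, 0.43, none for *Tie1*). Both of these sums were higher in TCKO, and their part in the lower ratios of the collagen regions was not tested.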

How the data were processed

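Primary osteoblasts of WT and TCKO mice were profiled by ATAC-seq, 4 samples in all per the labels. The authors aligned reads end to end with STAR (2.7.0e per the submitters' processing notes), pooled the repeats of a genotype and ran MACS2 on the pooled reads. They deposited raw counts per region, 1 merged column per genotype, and per peak a fold enrichment (ratio), −log10 p-value and −log10 q-value. Removal of duplicates and a transposase shift are not given in the sources used here. Merged libraries allowed no edgeR test. Ratios, intervals, regions within 1 kb of a start (promoters), motif matches and sums of loci were computed with Python 3.11.15, numpy 2.4.6, pandas 2.3.3 and pysam 0.24.0. Alternative factors came from edgeR 4.0.16 (TMM) and DESeq2 1.42.0, in R 4.3.3, and from the peak lists. Simulated counts served as a test, in which 200 of 200 regions with a 4-fold change were found again and 95.0% of 189504 intervals held the true ratio. This checks the calculation and cannot speak to the spread between animals, which the merged libraries do not hold. Named regions were, for each gene, the promoter and non-promoter region of most counts and, over all genes, the 5 lowest and 5 highest ratios among regions with at least 100 counts. Named processing genes were the 3 lowest and 3 highest loci. All other regions and list genes named were chosen after their values were seen. Members and lists were chosen with earlier results of these data known.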

Additional observations from a re-analysis of the deposited data

How the results depend on the processing

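No paired analysis was possible because the replicates of each genotype were deposited as 1 merged column, which also left no replicate to leave out. The ratios rest on 1 scaling factor. Without scaling, the median of the collagen regions was −0.85, of their promoters −0.80, introns −0.87 and flanks −0.94, and of the processing loci −0.77. With the depth of the peak caller's background these were −0.75, −0.69, −0.76, −0.83 and −0.67. Regions at least 2-fold lower then numbered 95 and 71, and higher 4 and 4, in the same order of settings. *Col3a1* turned to −0.55 and −0.44, *Col5a2* to −0.61 and −0.50, and the *Col3a1* promoter to −0.44 and −0.33, while the *Col27a1* region at 32.8 kb was at −0.013 without scaling. With the TMM and DESeq2 factors the medians and loci kept their direction, but regions near 0 turned, of *Col1a1* 7.3 kb upstream (−0.03 and −0.02), of *Col11a1* at 1.4 kb (−0.05 and −0.04) and of *Col24a1* at 14.8 kb (−0.07 and −0.06). With the trend on mean count removed by loess, the processing loci had a median of 0.0039 and the *Col5a1* and *Col1a2* promoter regions of most counts 0.0036 and 0.11. Within 2 kb of a start, *Col5a2* was at −0.36 and *Col27a1* at 0.057. The number of lower regions was 11 with 10 counts added, 46 at 1.5-fold and 3 with the interval wholly past 2-fold. The number of higher regions was 6 among regions with at least 50 counts, 29 at 1.5-fold and 3 with the interval wholly past 2-fold. At a −log10 q-value of at least 5, both lists had a summit in 91 regions and TCKO alone in 8. With equal numbers of peaks, WT alone had one in 55. The causes of these changes were not tested, apart from the stricter cutoffs, which keep fewer regions by construction. As an alternative chosen after seeing the data, leaving out the most influential region of a locus gave values between −0.36 and 0.20 and turned no direction. Regions of under 50 counts have intervals wider than most of the differences described.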
